A study of Mus musculus with 6 samples.

Results

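Integrins are cell surface receptors built from an alpha and a beta chain, and they tie cells to the matrix or to other cells. Their short cytoplasmic tails are bound by talins and kindlins, which switch the receptors on, and by a layer of adaptors (integrin-linked kinase, paxillin, vinculin) that couples them to actin. Lymphatic endothelium is known for alpha 9 beta 1 integrin, which takes part in valve formation, whereas the beta 2 integrins are the classical receptors of leukocytes. The genes described here are all integrin alpha and beta chains of the mouse together with 7 talin, kindlin and adaptor genes. They were taken by gene name alone and make up 34 rows of the 22027 in the table, for 33 gene names, since Itgam is carried by a pair of identifiers.

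RNA was sequenced from cells that the labels call lymphatic endothelial cells of the liver. The mice of both groups carried an IL7-GFP reporter, a green fluorescent tag of interleukin 7 expression. The names of the value columns mark every library of both groups as GFP plus. A sham group (n = 3 libraries) was compared with a group at day 3 after ischemia-reperfusion injury, written I/R (n = 3 libraries), in which liver blood flow is stopped and then restored. The labels do not say the strain, age, sex, gating markers beyond GFP or sham time point, nor which animals gave each library. The p-values therefore measure the spread between these libraries, which may be technical. Values are the authors' normalised counts, and depth ran from 6297308 to 17086746 counts recovered from them.

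The libraries held transcripts of more than the labelled cell type. Prox1, the lymphatic master regulator, lay between 849.6 and 2177 in all 6 libraries. Clec4f, a marker of Kupffer cells, the macrophages of the liver, lay between 32857 and 58478, while the T cell gene Cd3e was at 0 throughout. The hepatocyte gene Alb lay between 26138 and 43365. Summed over 8 hepatocyte markers, sham libraries ran from 40851 to 73430 and I/R libraries from 45275 to 60037. Summed over 9 lymphatic markers, sham libraries ran from 8594 to 28686 and I/R libraries from 26698 to 43267, with sham library 3 the lowest. Over 12 Kupffer cell and macrophage markers the sums were 239191 to 272267 in sham and 164950 to 274608 in I/R libraries, with I/R library 1 the lowest. In bulk samples such as these, fewer cells of a type and less RNA per cell cannot be told apart, and the part of cell makeup in the values below was not tested.

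Of the 34 rows, 31, for 30 gene names, had a mean value of at least 10 and entered the test across all genes. In limma on log2(value + 1), 0 of the 31 passed an adjusted p of 0.05, where 0.0298% of all 13434 tested genes did. At an unadjusted p under 0.05 there were again 0, against 4.44% of all tested genes (2.96% higher and 1.48% lower in I/R libraries). The sham and I/R values overlapped for every one of the 31, while the groups did not overlap for 9.59% of all tested genes (5.11% higher and 4.48% lower). On recovered counts, edgeR and DESeq2 also called 0 rows after adjustment, where they called 0.00744% and 0.253% of all genes. At an unadjusted p under 0.05 edgeR held 1 row, the second Itgam identifier, against 3.98% of all genes, and DESeq2 held 0 rows against 3.46%. The median log2 fold change of the 31 rows was 0.06, with 18 positive and 13 negative, next to 0.02 over all tested genes, and it was -0.01 without sham library 3. One gene changed this picture when its rows were joined, namely Itgam.

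Itgam encodes the alpha M chain (CD11b), which pairs with beta 2 to form the complement receptor Mac-1 of monocytes, neutrophils and macrophages. In GENCODE M21 on GRCm38, the Itgam identifier ENSMUSG00000030786 spans 128062640 to 128118491 on the plus strand of chromosome 7. The second identifier that the authors named Itgam, ENSMUSG00000108596, spans 128062683 to 128128160 and is called Gm49368 in that release. It starts 43 bp inside Itgam, runs 9669 bp past its end and stops 1387 bp before Itgax. The models share 3450 bp of exon, which is 68.7% of Itgam and 71.8% of the second identifier, so reads from the shared exons could be assigned to either.

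The 300 bases around the Itgam start are shown because both identifiers begin within them. They are RefSeq sequence of GRCm38.p6, chr7:128062390-128062689, plus strand. The annotated Itgam start is base 251 and that of the second identifier base 294. Capitals mark the 3 matches, on either strand, to GAGGAA, a core bound by ETS factors such as PU.1, which is known to drive this gene in myeloid cells.

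Itgam: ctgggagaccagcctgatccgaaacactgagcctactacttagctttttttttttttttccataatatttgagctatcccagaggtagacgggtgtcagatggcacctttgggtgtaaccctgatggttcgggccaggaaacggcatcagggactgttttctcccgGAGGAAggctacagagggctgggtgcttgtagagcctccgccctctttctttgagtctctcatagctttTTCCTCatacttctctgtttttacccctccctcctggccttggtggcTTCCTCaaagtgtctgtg

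The motif occurred in 28.3% of 32851 promoter windows of this length, and in any window of 10 of the 23 member genes that had a window. The former share counts windows and the latter counts genes, some of which had several windows, so they are not directly comparable. The letters of the motif are common, and a match is a description of the sequence only.

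Row by row, Itgam gave no clear difference. The Itgam identifier stood at 684, 772 and 505 in sham libraries 1, 2 and 3 and at 1412, 718 and 758 in I/R libraries 1, 2 and 3. The second identifier stood at 71.7, 0 and 34.7 in sham and at 0, 708 and 699 in I/R libraries. The groups overlapped in both rows, with limma log2 fold changes of 0.51 (SE 0.28, adjusted p = 0.985) and 2.53 (SE 2.34, adjusted p = 0.985). In I/R library 1 the whole signal lay on the Itgam identifier, whereas in I/R libraries 2 and 3 the second identifier held 49.7% and 48.0% of it.

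Added together, a step chosen after the values were seen, the rows no longer overlapped between the groups. Summed Itgam was 756, 772 and 540.1 in sham libraries 1, 2 and 3, and I/R libraries 1, 2 and 3 had 1412, 1426 and 1457. The lowest I/R library lay far above the highest sham library, and the I/R libraries lay close together. The means were 689 ± 129 and 1431 ± 22.9 (SD, n = 3 each), a ratio of 2.08. In the same limma fit with the rows joined, the log2 fold change was 1.07 (SE 0.19, 95% interval 0.65 to 1.49), and the adjusted p of 0.205 did not pass. On recovered counts the adjusted p was 0.269 in edgeR and 0.000805 in DESeq2. Over all alternatives the adjusted p ran from 0.000805 to 0.968, and the log2 fold change from 0.905 without sham library 3 to 1.16 without sham library 2. How reads of shared exons were assigned is not given in the sources used here. In sham library 2 and I/R library 1 the second identifier was at 0 beside 772 and 1412 on Itgam, so shared reads were not counted on both there. If they had been counted on both in I/R libraries 2 and 3, the sum would be too high in those libraries.

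**Figure D1:**
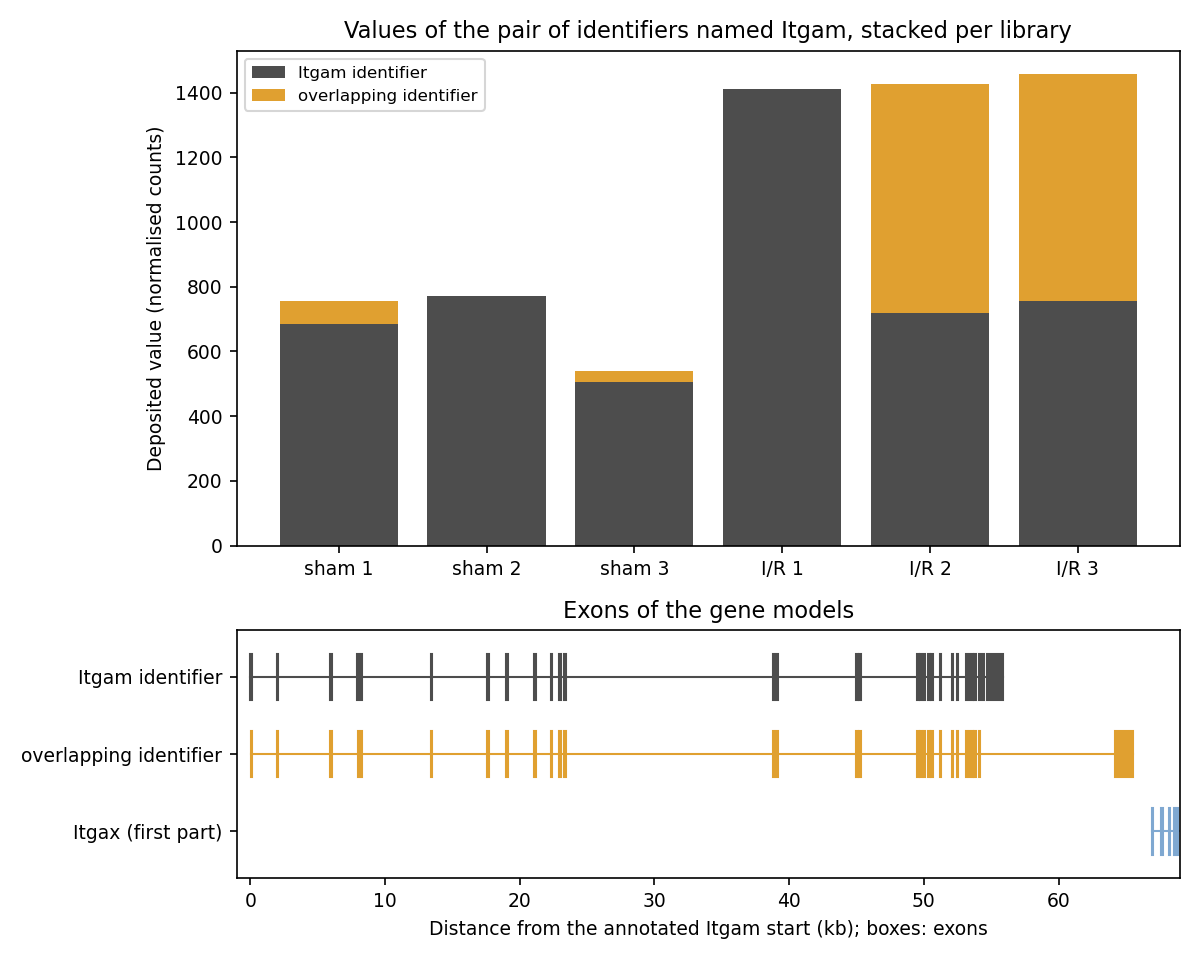
Upper panel: deposited values (normalised counts) of the pair of identifiers named Itgam, stacked for each of 3 sham and 3 I/R libraries. The stacks reach 540.1 to 772 in sham and 1412 to 1457 in I/R libraries. Lower panel: exon maps by distance from the annotated Itgam start in kb, with the second identifier sharing most Itgam exons and ending just before Itgax.

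Monocyte markers were measured beside this gene. The monocyte chemokine receptor gene Ccr2 stood at 44.0, 69.8 and 83.6 in sham and at 307, 429 and 237 in I/R libraries. The summed level of the 10 monocyte and neutrophil markers was 2433 to 3271 in sham and 3159 to 3589 in I/R libraries, with 9 of the 10 tested and 6 of these 9 positive. Macrophages can carry Itgam as well, and the 12 Kupffer cell and macrophage markers had 1 positive and 11 negative fold changes. Which cells carried the Itgam difference was not tested.

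The other leukocyte alpha chains did not share the pattern of summed Itgam. Itgal, Itgam, Itgax and Itgad lie on the plus strand of chromosome 7, with starts from 127296260 for Itgal to 128154376 for Itgad. Itgal encodes the alpha L chain of LFA-1, the receptor for ICAMs on lymphocytes and myeloid cells. It stood at 5679, 8164 and 6655 in sham libraries and at 3549.7, 5263 and 6310.0 in I/R libraries. I/R libraries 1 and 2 lay below all sham libraries and I/R library 3 did not. The log2 fold change was -0.46 (SE 0.23, 95% interval -0.98 to 0.06, limma adjusted p = 0.985), and it was -0.23 without I/R library 1. I/R library 1, the lowest in Itgal, was also the lowest in summed Kupffer cell markers. Summed lymphocyte markers were low, at 55.4 to 116 in sham and 120 to 186 in I/R libraries, and did not overlap between the groups. Only 3 of the 11 lymphocyte markers were tested, and 2 markers were at 0 throughout. Of the tested markers 2 were positive and 1 negative, at log2 fold changes from -0.17 to 4.36.

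Itgax, the gene of the dendritic cell and macrophage chain alpha X (CD11c), ran from 108 to 187 in sham and from 109 to 163 in I/R libraries. Itgad, encoding alpha D, was at 0 in all 6 libraries, which allows up to 1.83 to 4.89 normalised counts per library at a floor of 3 counts. Itgae, the alpha E chain that pairs with beta 7 on epithelial T cells, had 17 counts in sham library 2, 2 counts in I/R library 1 and 0 in the rest. Per kilobase of exon, the level of Itgal was 5.74 to 9.42 times that of summed Itgam in sham and 1.92 to 3.31 times in I/R libraries, with no overlap. This ratio was computed after the Itgam values were seen.

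The alpha 4 and alpha 9 chains form a subfamily that binds VCAM1 and fibronectin variants. Itga9 was at 6564, 6151 and 5263 in sham libraries and at 4389.6, 5347 and 5885 in I/R libraries, and the log2 fold change was -0.21 (SE 0.18, 95% interval -0.61 to 0.19, limma adjusted p = 0.985). The groups overlapped, with I/R library 1 the lowest. Sham library 3 had the lowest lymphatic marker sum, 8594, and an Itga9 value of 5263, while I/R library 1 had the highest lymphatic sum, 43267, and the lowest Itga9. The order of the libraries by Itga9 differed from their order by lymphatic markers. I/R library 1 was also the lowest in summed Kupffer cell and macrophage markers, at 164950. The part of either cell type in the Itga9 values was not tested. Itga4, known mainly from leukocytes, ran from 1414 to 1989.6 in sham and from 1439 to 1619 in I/R libraries. Per kilobase, the level of Itga9 was 4.81 to 8.43 times that of Itga4.

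Among chains that read the RGD sequence of fibronectin and vitronectin, Itga5 and Itgav were abundant. Itga5, the chain of the classical fibronectin receptor, stood at 5602, 4009 and 3707 in sham and at 3897, 4545 and 4023 in I/R libraries. Sham library 1 was the highest, and the log2 fold change was -0.07 (SE 0.19, 95% interval -0.50 to 0.35, limma adjusted p = 0.995). Its sign turned to 0.105 without sham library 1 and to 0.034 with quantile normalisation. Itgav, whose chain pairs with several beta chains and activates latent TGF-beta, ran from 1882 to 3243 in sham and from 2793 to 3887 in I/R libraries. Its log2 fold change was 0.48 (SE 0.24, limma adjusted p = 0.985), and 0.74 without sham library 1, where the groups did not overlap (adjusted p = 0.280). Itga8, a chain of mesenchymal cells, ran from 44.6 to 184 in sham and from 84.6 to 202 in I/R libraries. Itga2b, the platelet chain that marks megakaryocytes, lay at 4.89 to 19.1 in sham and 10.1 to 23.1 in I/R libraries, and its sign turned with quantile normalisation.

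The laminin-binding chains were less abundant. Itga6, found on endothelium and epithelium, ran from 271 to 369.9 in sham and from 343 to 487 in I/R libraries, and the log2 fold change was 0.47 (SE 0.23, limma adjusted p = 0.985). Itga3 ran from 167 to 432 in sham and from 228 to 481 in I/R libraries, and Itga7, a chain of muscle and pericytes, from 9.56 to 42.4 and from 7.91 to 44.1. Of the collagen-binding chains, Itga1, which is found on endothelial and stromal cells, was the most abundant at 232 to 451 in sham and 299.5 to 612 in I/R libraries. Itga2 ran from 0 to 15.5 in sham and from 0 to 27.4 in I/R libraries, and Itga10 from 5.32 to 33.5 and from 3.65 to 19.8. The exons of Itga10 overlap those of another gene model on the same strand over 33.5% of their length, and those of Itga1 over 3.68%, so these values carry that uncertainty. Itga11, a chain of fibroblasts, had 2, 0 and 0 counts in sham libraries and 3, 13 and 23 in I/R libraries. It fell under the filter on low values and was not tested. With no filter its limma log2 fold change was 2.59 (SE 1.13, adjusted p = 0.975).

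**Figure D2:**
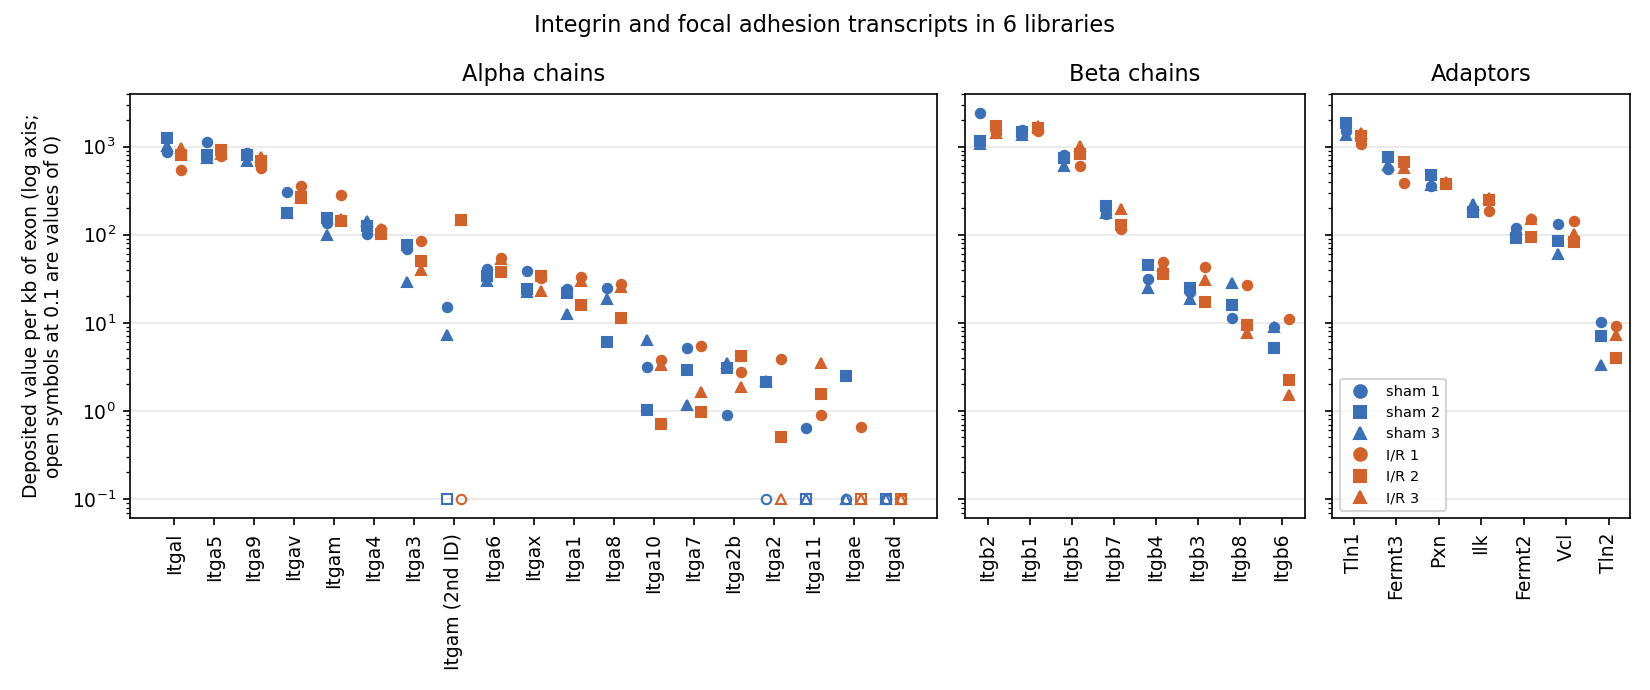
Deposited value per kilobase of exon (log axis) for every alpha chain, beta chain and adaptor row, with sham libraries as blue and I/R libraries as orange symbols and 1 shape per replicate number. Blue and orange symbols overlap for each of the 31 tested rows, and Itgad is at 0 in all 6 libraries.

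Beta chains decide which alpha chains can reach the surface. Itgb1, the partner of most matrix-binding alpha chains, was at 6332, 6029 and 5475 in sham and at 6173, 6584 and 6922 in I/R libraries. Its replicates were close, and the log2 fold change was 0.14 (SE 0.16, 95% interval -0.21 to 0.50, limma adjusted p = 0.985). With equal library totals or quantile normalisation the groups did not overlap, at log2 fold changes of 0.198 and 0.245. Itgb2, the partner of the leukocyte alpha chains, was at 7393, 3585 and 3304 in sham and at 4356, 5188 and 4328 in I/R libraries. Sham library 1 stood apart from the other 5, and the log2 fold change of 0.05 (SE 0.28, adjusted p = 0.996) became 0.42 without that library, -0.16 without sham library 3, -0.0386 in edgeR and -0.0412 in DESeq2.

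Itgb5, a partner of Itgav in vitronectin binding, was at 2845, 2615 and 2152 in sham and at 2126, 2935 and 3633 in I/R libraries. The groups overlapped because of I/R library 1, the lowest of the 6, and the log2 fold change was 0.17 (SE 0.22, limma adjusted p = 0.985). Per kilobase, the level of Itgb5 was 13.8 to 47.4 times that of Itgb3, the vitronectin and fibrinogen receptor chain of platelets and vessels. It was 21.6 to 132 times that of Itgb8 and 53.8 to 667 times that of Itgb6, which both serve in TGF-beta activation. These are the beta chains that, like Itgb1, can pair with the Itgav product. Itgb3 ran from 109 to 145 in sham and from 103 to 256 in I/R libraries, and Itgb8 from 124 to 311 and from 85.6 to 297, with overlapping groups in both.

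Itgb6, an epithelial chain, was at 37.2 to 63.6 in sham, 79.1 in I/R library 1 and 15.8 and 10.9 in I/R libraries 2 and 3. Its log2 fold change was -1.10 (SE 0.74, limma adjusted p = 0.985). It was -1.94 without I/R library 1, -0.561 without I/R library 3, -0.667 in edgeR and -0.658 in DESeq2, and passed the adjusted threshold in none of these. Summed cholangiocyte markers were likewise highest in I/R library 1, at 19809, and lowest in I/R library 3, at 6591. Most of these sums was 1 gene, Spp1, at 15923 and 5486, which is also among the matrix ligands below. The 6 cholangiocyte markers had 3 positive and 3 negative fold changes, and their part in the Itgb6 values was not tested. Itgb4, which pairs with alpha 6 in epithelial and some endothelial cells, ran from 176 to 314 in sham and from 249 to 344 in I/R libraries. Itgb7, the partner of Itga4 and Itgae on lymphocytes, ran from 482 to 589 in sham and from 318 to 547 in I/R libraries, and the log2 fold change was -0.38 (SE 0.24, limma adjusted p = 0.985).

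Scaled to exon length, a few chains made up most of the integrin transcripts. Among alpha chains, Itgal held 31.1% ± 6.31 of the summed level per kilobase in sham and 23.9% ± 4.94 in I/R libraries (SD, n = 3 each). Itga5 held 26.6% ± 4.27 and 26.6% ± 2.27, and Itga9 23.1% ± 0.428 and 21.2% ± 1.49. Summed Itgam held 4.16%, 4.41% and 3.58% in sham and 9.67%, 8.78% and 8.56% in I/R libraries, without overlap. Among beta chains, Itgb2 held 37.7% ± 9.17 and 36.4% ± 3.76, Itgb1 37.3% ± 5.52 and 38.5% ± 1.38, and Itgb5 18.1% ± 2.02 and 19.3% ± 3.67. The order of Itgb1 and Itgb2 was not stable, since their ratio per kilobase was 0.640 in sham library 1, 0.949 in I/R library 2 and 1.06 to 1.26 in the others.

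**Figure D3:**
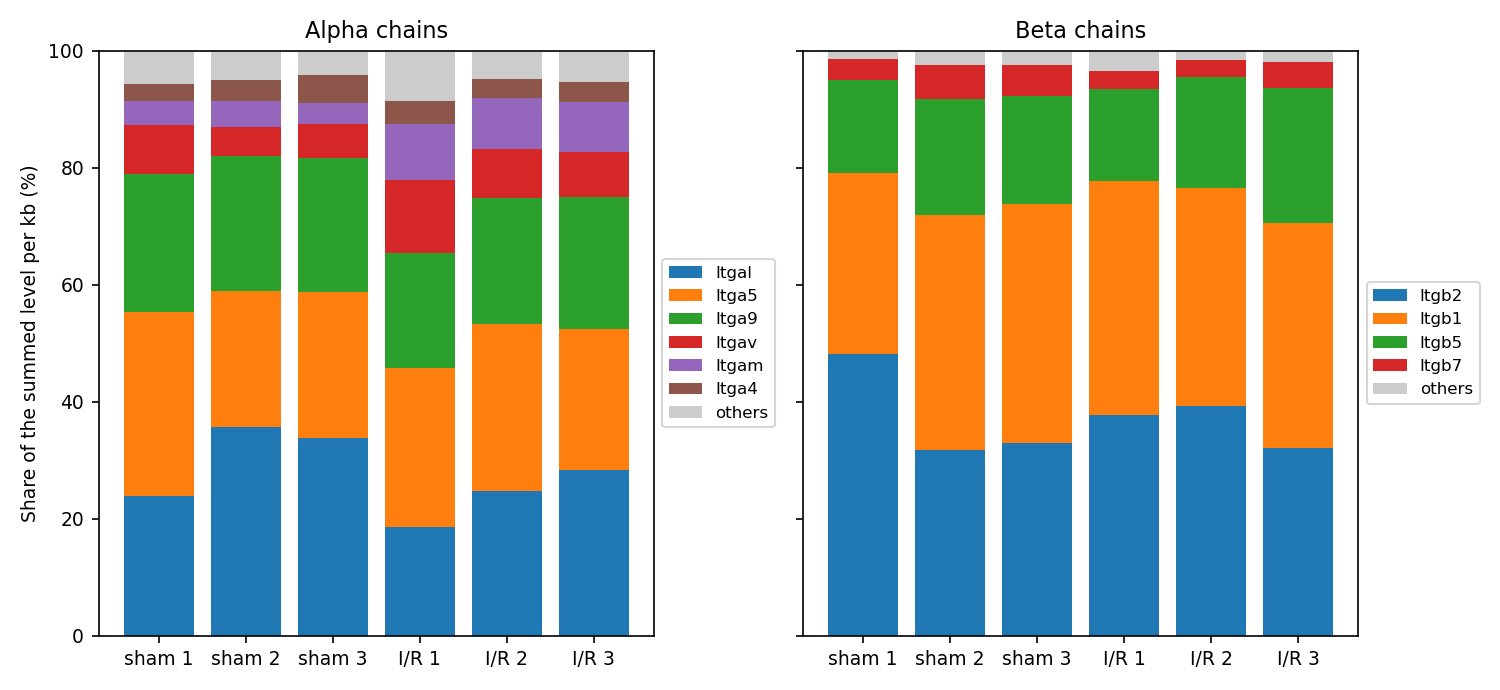
Share of the summed level per kilobase of exon (%) held by each alpha chain (left) and beta chain (right), stacked for 3 sham and 3 I/R libraries, with Itgam summed over both identifiers. Itgal, Itga5 and Itga9 fill most of each alpha stack, and the Itgam band is 3.58% to 4.41% in sham and 8.56% to 9.67% in I/R libraries.

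The tail-binding proteins were led by talin 1. Tln1, whose product makes the final step of integrin activation, ranked 71 among all genes by mean value. It was at 14799.5, 18375 and 13433 in sham and at 10393, 12905 and 13946 in I/R libraries. I/R library 1 was the lowest, and the log2 fold change was -0.32 (SE 0.20, 95% interval -0.77 to 0.13, limma adjusted p = 0.985). Per kilobase its level was 114 to 413 times that of its paralog Tln2, known from muscle and brain.

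Kindlins act beside talin on the beta tail, Fermt3 (kindlin 3) in blood cells and Fermt2 (kindlin 2) in most other cells. Fermt3 was at 3249, 4471 and 3575 in sham and at 2232, 3826 and 3343 in I/R libraries, and the log2 fold change was -0.29 (SE 0.22, 95% interval -0.79 to 0.21, limma adjusted p = 0.985). Without I/R library 1 the Fermt3 value was -0.061, and without sham library 2 it was -0.157. Fermt2 ran from 479 to 622 in sham and from 486 to 781 in I/R libraries. Per kilobase, Fermt3 was above Fermt2 in every library, at 2.57 times in I/R library 1 and 3.85 to 8.38 times in the others. I/R library 1 again was the one with the lowest Kupffer cell sum.

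The adaptors that build on activated integrins showed small differences. Pxn, encoding the scaffold paxillin, ran from 2915 to 3869 in sham and from 3107 to 3226 in I/R libraries. Its log2 fold change of -0.04 turned to 0.0136 with equal totals and to 0.0588 with quantile normalisation. Ilk, encoding the pseudokinase that links beta tails to parvins, ran from 503 to 619 in sham and from 509.7 to 719 in I/R libraries. Vcl, encoding vinculin, which bears force between talin and actin, ran from 498 to 1089 in sham and from 672 to 1158 in I/R libraries. Limma adjusted p was 0.995 for Pxn, 0.985 for Ilk and 0.985 for Vcl.

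**Figure D4:**
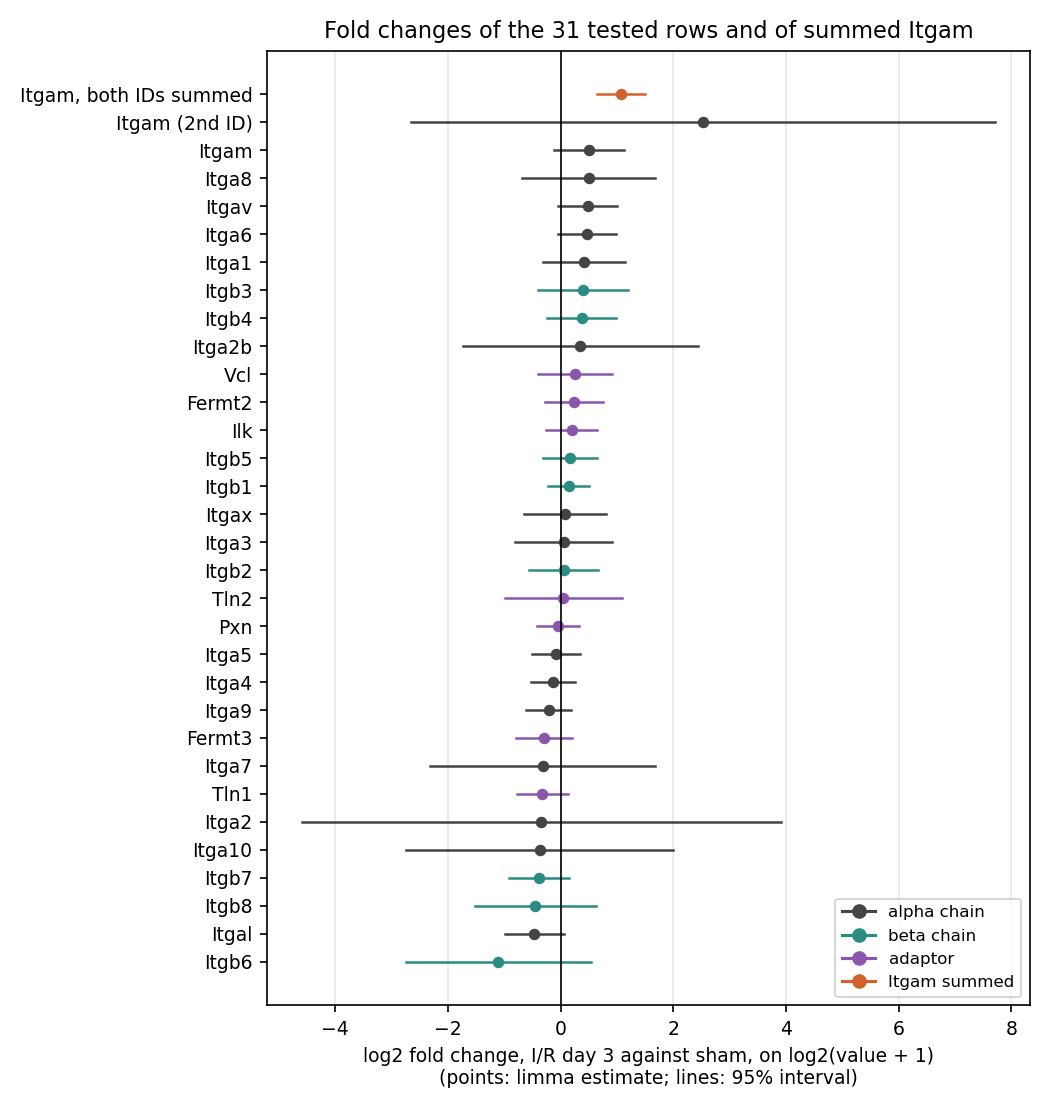
Limma log2 fold change of I/R day 3 against sham on log2(value + 1), with 95% intervals, for the 31 tested rows by class and for Itgam with both identifiers summed. The intervals of all 31 rows include 0, and that of summed Itgam runs from 0.65 to 1.49.

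Sham library 3 and I/R library 1 set many of the extremes among these genes. The former had the lowest value for 12 of the 31 tested rows, or 38.7%, where it was lowest for 20.5% of all tested genes. These 12 were Itgb1, Itgb2, Itgb4, Itga1, Itga3, Itga5, Itga6, Itgav, Itgax, the Itgam identifier, Tln2 and Vcl. I/R library 1 had the highest value for 13 rows, or 41.9%, against 20.5% of all tested genes. It also had the lowest value for 6 rows, Tln1, Itgal, Itgb5, Itga9, Fermt3 and Itgb7. That was 19.4%, near the 16.9% of all tested genes.

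Genes that work with integrins were counted from 5 lists of ligands, partners and regulators. In limma 0 of their tested members passed an adjusted p of 0.05, in edgeR 0 did, and in DESeq2 Thbs1 and Fn1 did. Without sham library 1, limma called Thbs1, Col1a1 and Col3a1 higher, at adjusted p of 0.0167, 0.0458 and 0.0137. At an unadjusted p under 0.05 limma found 3 higher and 3 lower of 38 other focal adhesion genes, 5 higher and 0 lower of 28 matrix ligands, and 2 higher and 1 lower of 13 membrane partners. It found 0 of 17 activation genes and 0 of 10 surface ligands. Among all tested genes 2.96% were higher and 1.48% lower by the same measure.

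Matrix ligands were mostly on the positive side, with 25 of 28 positive and a median log2 fold change of 0.37, against 0.02 over all tested genes. The count of positive genes was 20 and the median 0.17 without sham library 3, 26 and 0.653 without sham library 1, and 21 and 0.255 in DESeq2. Summed stellate cell and fibroblast markers, from cells that make matrix, were also lowest in sham library 3, at 2298. They were highest in sham library 1, at 9895, with 6227 to 8196 in I/R libraries. Col1a1 and Col3a1 stand in both lists, so the marker sum and the ligands are not independent. These genes were at 1973 and 3207 in sham library 1 and at 246 and 321 in sham library 3. Lymphatic markers were positive for 9 of 9 genes (median log2 fold change 0.96) and pan-endothelial markers for 8 of 10 (median 0.51). Liver sinusoidal endothelial markers had 4 positive and 4 negative (median -0.02), and hepatocyte markers 2 positive and 6 negative (median -0.22). Of 8 platelet markers 2 were tested, and Pf4 among them stood at a log2 fold change of 1.75, with overlapping groups. The part of these cells in the ligand values was not tested. The groups did not overlap for 3 of the 28, Thbs1, Fn1 and Vwf, all higher in I/R libraries. Among all tested genes 5.11% lay higher without overlap, and 9.59% did not overlap in either direction. Thbs1, encoding thrombospondin 1, a ligand of several integrins, was at 3562, 2715 and 1844 in sham and at 8805, 6696 and 7195 in I/R libraries. Its log2 fold change was 1.52 (SE 0.24), with an adjusted p of 0.115 in limma and 3.59e-06 in DESeq2. Fn1, encoding fibronectin, the ligand of alpha 5 beta 1, was at 3168, 3492 and 2832 in sham and at 6602, 4506 and 7207 in I/R libraries. Its log2 fold change was 0.92 (SE 0.21), with an adjusted p of 0.508 in limma and 0.00687 in DESeq2. For both ligands every I/R library lay above every sham library, while Itga5, Itgav and Itgb1, whose chains bind fibronectin, overlapped between the groups.

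Surface ligands leaned the other way, with 3 of 10 positive and a median log2 fold change of -0.22. Kupffer cell and macrophage markers had 11 of 12 negative and a median of -0.17, and their part in the values of surface ligands and of regulators was not tested. Icam1, a ligand of both Itgal and Itgam products with beta 2, was at 11871, 12803 and 10897 in sham and at 8423, 10142 and 10743 in I/R libraries. Vcam1, a ligand of the alpha 4 and alpha 9 chains, was at 23208, 22240.0 and 23412 in sham and at 16352, 18759.6 and 22102 in I/R libraries. Every I/R value lay below every sham value in both, at log2 fold changes of -0.28 for each (SE 0.18 and 0.19, limma adjusted p = 0.985 for both). The margin between the nearest libraries was small in both genes. Jam3, a junctional ligand of Itgam, had 8.20 ± 7.24 in I/R against 19.8 ± 7.14 in sham libraries (SD, n = 3 each), with 0 in I/R library 2. At these low values it also lay lower without overlap (limma adjusted p = 0.985). These were 3 of 10 surface ligands, where 4.48% of all tested genes lay lower without overlap.

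Among regulators of integrin activity 5 of 17 were positive, with a median log2 fold change of -0.18. Dok1, which competes with talin on beta tails, and Flna, encoding filamin A, which also binds the tails and holds integrins inactive, had every I/R value below every sham value. Their log2 fold changes were -0.49 (SE 0.24) and -0.22 (SE 0.16), with a limma adjusted p of 0.985 for both, and Filip1l separated likewise at -0.18 (SE 0.16). These were 3 of 17 regulators, where 4.48% of all tested genes lay lower without overlap.

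Other focal adhesion genes were evenly divided, with 19 positive and 19 negative, and 23 and 15 with equal totals. Lims1, which encodes the partner PINCH of integrin-linked kinase, went from 486 ± 95.1 to 702 ± 108 (SD, n = 3 each), and Kank1 from 187 ± 86.7 to 324 ± 49.1, with Lpp also separated upward at 0.54 (SE 0.22). Parvg, the parvin of blood cells, went from 548 ± 83.6 to 379.8 ± 17.6, Actn1, encoding alpha-actinin 1, from 7341 ± 1195 to 5395 ± 739, and Ptk2b, encoding the focal adhesion kinase relative PYK2, from 3024 ± 203 to 2326 ± 264. These 6 of 38 genes did not overlap between the groups, as did 9.59% of all tested genes, and their limma adjusted p was 0.985.

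Membrane partners had 7 of 13 positive. The tetraspanin genes Cd9 and Cd151, whose products bind integrins laterally, lay higher in every I/R library, from 471 ± 141 to 689 ± 79.9 and from 459 ± 8.20 to 543 ± 14.4. The tetraspanin genes Cd82 and Cd81 lay lower in every I/R library, from 928 ± 43.0 to 667 ± 182 and from 4026 ± 239 to 3461 ± 162 (SD, n = 3 each). Limma adjusted p was 0.985 for these 4 of 13 genes, and groups without overlap were found for 9.59% of all tested genes.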

How the data were processed

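The authors deposited a signal of normalised counts for 22027 genes, all protein coding, and the step that normalised them is not given in the sources used here. Libraries were rRNA-depleted, per the labels' protocols. Tools listed without their roles are DESeq2 1.22.1, StringTie 1.3.3b, HISAT2 2.1.0 and Trim Galore 0.5.0, and the build mm10, per the submitters' processing notes. When the smallest positive value of a library was taken as 1 count, 100% of its values came out whole (tolerance 0.01). Median-of-ratios factors, the kind DESeq2 computes, were calculated from these recovered counts. They were proportional to the scaling of the deposited values, with a lowest and highest relative ratio of 1 and 1. The counting step behind the values is not stated. No pair of libraries agreed within sampling noise (chi-square per degree of freedom 24.7 to 54.2). The 95% intervals come from limma and rest on the spread between libraries, whereas the floors of 3 counts cover counting error only.

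Limma 3.58.1 in R 4.3.3 was fitted to log2(value + 1) with an intensity trend, over genes with a mean of at least 10, two-sided, with Benjamini-Hochberg adjustment over all 13434 genes and a threshold of 0.05. The fit was tested on simulated data. An exact permutation test of 3 against 3 cannot go below p = 0.1. Alternatives were edgeR 4.0.16 and DESeq2 1.42.0 on recovered counts, pseudocount 5, no filter, no trend, equal totals, quantile normalisation, a replicate block and leaving out each library. Adjusted p that DESeq2 gave as missing stayed missing. Levels per kilobase use the union of GENCODE M21 exons, and promoter sequence is from RefSeq.

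Members were matched by gene name, but the choice of this gene family and of the lists was made with earlier results of these data known. By rule, all 6 values were given for rows with an unadjusted p under 0.05, groups that did not overlap, or the 8 highest levels per kilobase. Up to 3 separated genes per direction were named from each list. Itgam, Itgam ratios and other genes given library by library were singled out after their values were seen.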

Additional observations from a re-analysis of the deposited data

How the results depend on the processing

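The count of 0 members past the adjusted threshold held under all 14 alternative settings run with 1 row per identifier. With Itgam summed it was 0 in limma, while summed Itgam passed in DESeq2. Over all tested genes, calls numbered 4, against 42 with DESeq2, 1 with edgeR, and 0 without the trend or with the replicate block, and 0 to 22 when single libraries were left out. Without sham library 1 there were 22, and without any other single library 0. Members at an unadjusted p under 0.05 numbered 1 with edgeR, with equal totals, with quantile normalisation, with no filter and with Itgam summed. They numbered 2 with the replicate block and 0 to 4 on leaving out libraries, with the 4 found without sham library 1. By this measure the replicate block gave 411 genes higher and 197 lower over all genes. The fit without a filter gave 502 and 232, and edgeR 327 and 208. Among these settings a share of all genes is given for edgeR alone, so the member counts are descriptive only. Members without overlap between the groups numbered 1 with equal totals, quantile normalisation, no filter or Itgam summed. On leaving out libraries they numbered 2 to 6, where fewer libraries must separate. The share of all genes without overlap under these settings is not given here, so these counts are not read as a result about the members. At an unadjusted p under 0.05 the split over all genes was 397 higher and 199 lower, against 490 and 130 with equal totals, 370 and 240 with quantile normalisation, 207 and 216 without I/R library 1 and, when sham library 1 was left out, 695 and 378. List genes past the threshold numbered 2 with DESeq2 and 0 to 3 on leaving out libraries. The members' median log2 fold change ran from -0.0145 without sham library 3 to 0.19 without sham library 1.

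Of 434 member values under the alternatives, 401 kept their direction and side of the threshold and 33 changed sign, in 13 of 31 rows. None of these rows was called, and the cause was not tested. On leaving out libraries, log2 fold changes ran from -1.02 to 0.319 for Itga10, -1.69 to 0.831 for Itga2, -0.206 to 0.68 for Itga2b, -0.371 to 0.31 for Itga3, -0.193 to 0.105 for Itga5, -0.986 to 0.183 for Itga7 and -0.0987 to 0.913 for Itga8. They ran from -0.0705 to 0.327 for Itgax, -0.16 to 0.421 for Itgb2, -0.0132 to 0.373 for Itgb5, -0.119 to 0.0847 for Pxn, -0.398 to 0.411 for Tln2 and -0.0145 to 0.548 for Vcl. Among rows that kept their sign, the range was -0.645 to -0.23 for Itgal, -0.45 to -0.061 for Fermt3, -0.42 to -0.194 for Tln1, -0.301 to -0.0891 for Itga9, -0.615 to -0.225 for Itgb7, -1.94 to -0.561 for Itgb6, 0.33 to 0.736 for Itgav, 0.366 to 0.632 for Itga6, 0.0846 to 0.19 for Itgb1, 0.195 to 0.683 for the Itgam identifier and 0.637 to 5.68 for the second identifier. Signs also turned with quantile normalisation for Itga2b (-0.338), Itga5 (0.0342), Pxn (0.0588) and Tln2 (-0.029), with equal totals for Pxn (0.0136), with edgeR for Itgb2 (-0.0386) and Tln2 (-0.0119), and with DESeq2 for Itgb2 (-0.0412) and Tln2 (-0.0116).

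Same-numbered libraries showed no sign of pairing, with deviations from the group means correlated at -0.020, -0.210 and -0.001. Between libraries of different number the correlations ran from -0.128 to 0.178. With 3 libraries per group these correlations depend on each other, so they cannot decide whether libraries were paired. Under the replicate block the 4 calls over all genes became 0. Summed Itgam passed in DESeq2 and in no other setting run, and its adjusted p was 0.319 with the replicate block. Depth limits the lowest genes, with 3 counts worth 1.83 to 4.89 normalised counts.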
